A study of Mus musculus with 4 samples.

Results

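The cadherin and protocadherin genes were taken from a count table of the repressive histone mark H3K27me3 in mouse alveolar macrophages, phagocytes that live in the lumen of the lung's air sacs. Entrez IDs were matched to mouse symbols, and every symbol of the form Cdh plus a number, or beginning with Pcdh, was kept. This gave 93 genes of 27095 in the table. They comprised 23 numbered cadherins, 12 single protocadherins and 58 clustered protocadherins (14 Pcdha, 22 Pcdhb and 22 Pcdhg). Cut&Tag tethers a transposase to the antibody, so that chromatin near the mark is cut and tagged for sequencing. The tested libraries were 2 from Suz12 conditional knockout (cKO) chimeras, set against 2 from wild-type chimeras. Irradiated C57BL/6-Ly5.1 hosts had received 90% Ly5.2 marrow, Suz12 cKO or wild type, mixed in both groups with 10% wild-type Ly5.1 marrow, and each library was made from 100000 sorted lung macrophages. No source used here gives the age of the mice, the Cre driver, or whether the sort removed Ly5.1 or host cells. Wild-type cells may therefore contribute to the cKO libraries, and the labels call the samples of a genotype biological replicates without saying how many animals each held.

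Cadherins are calcium-dependent adhesion molecules that join cells through their extracellular repeats. Classical cadherins, of types I and II, bind catenins inside the cell and so connect to actin, whereas protocadherins lack the catenin-binding tail. The clustered protocadherins are expressed in combinations that give single neurons a surface identity. In the Pcdha and Pcdhg clusters, each variable first exon is spliced to shared constant exons, so the annotated genes nest inside one another. Suz12 is a core subunit of PRC2, the complex that methylates H3K27, and many developmental genes are PRC2 targets in cells that do not express them.

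Depth was 3331138 and 3567282 counts in the cKO libraries, against 2592297 and 2142175 in wild type. The members took 0.612% and 0.625% of these counts in cKO and 0.614% and 0.599% in wild type. The Suz12 window held 11 and 10 counts in cKO and 8 and 10 in wild type, too few to check the deletion, of which the deleted part is not given. Genes on a list of 15 alveolar macrophage markers stood low, at a median of 0.139 ± 0.00805 CPM (counts scaled to the depth of the library) per kb of window in cKO and 0.152 ± 0.0273 in wild type (SD, n = 2 each), and 1 of them had no counts in any library. None of the 8 that could be tested was called by edgeR, with 1 at an unadjusted p below 0.05 and 0 called by DESeq2. The median log2 fold change of these 8 was 0.63, with 6 positive, whereas the medians per kb cover all 15. The summed level of the 15 ran from 94.6 to 101 CPM in cKO and from 78.3 to 91.1 CPM in wild type. On lists for lung epithelium, endothelium, fibroblasts, T cells, B cells and granulocytes the median ran from 0.489 to 1.84 CPM per kb in cKO and from 0.280 to 2.03 in wild type. On these lists edgeR called 1 gene, an endothelium gene that was lower in cKO, and DESeq2 called 0. A window is the whole gene with 3 kb on either side, so a level averages the promoter and the gene body. CPM are shares of a library, in which a loss of signal common to all windows cannot be seen, and fewer marked cells cannot be told apart from less mark per cell.

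The level of H3K27me3 differed widely from member to member. Of the 35 genes outside the clusters, 19 stood above the median of all tested windows (0.682 CPM per kb, mean of the genotypes) and 4 were among the top 10% of them, at 3.45 CPM per kb or more. These were Cdh15 of the numbered cadherins and Pcdh8, Pcdh1 and Pcdh12 of the single protocadherins. The highest and lowest levels differed 129-fold among numbered cadherins and 77.0-fold among single protocadherins. Level and window length ran in opposite directions over the 35 genes (Spearman's rho −0.51), as they did over all 16752 tested windows (−0.35). Part of this is arithmetic, because the length is the divisor of the level.

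**Figure D1:**
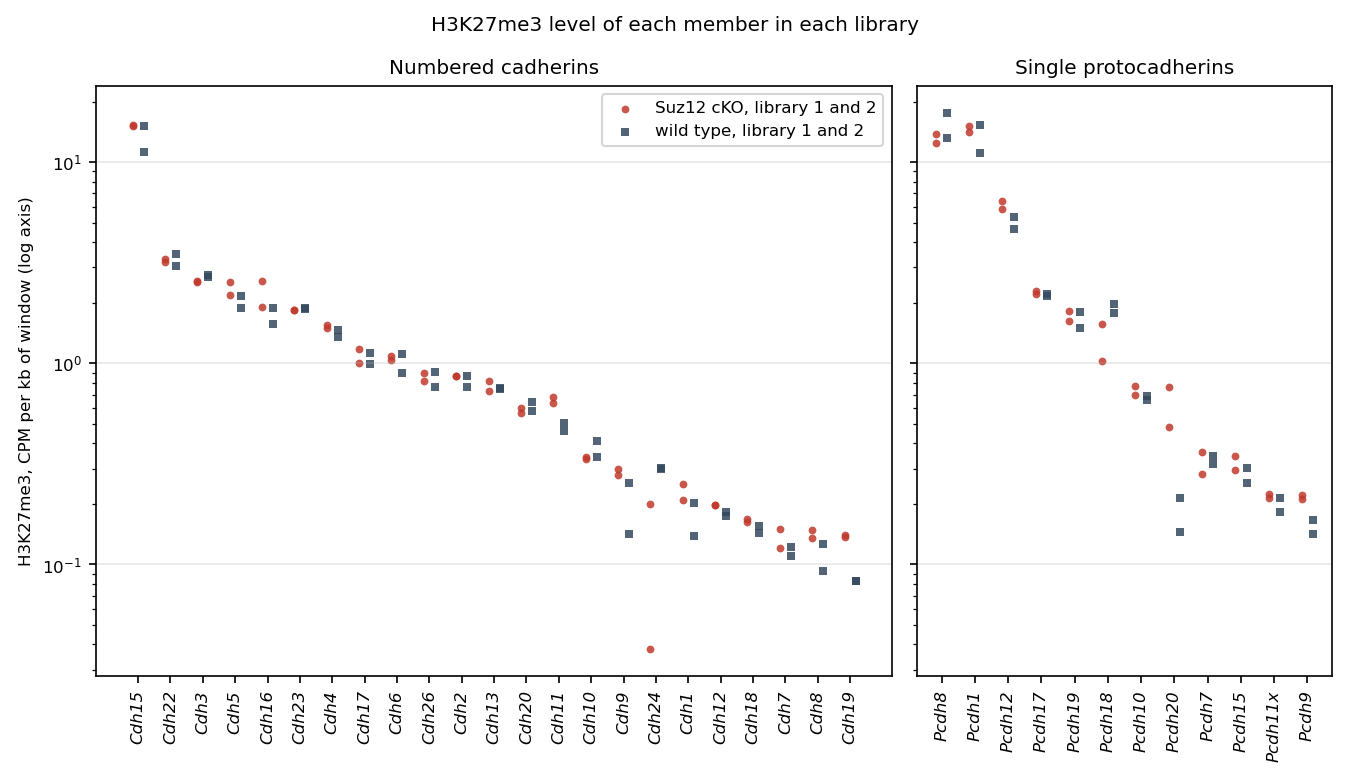
H3K27me3 in CPM per kb of window (log axis) for the 23 numbered cadherins and 12 single protocadherins, each point 1 library, with Suz12 cKO left of wild type for each gene. Cdh15, Pcdh8 and Pcdh1 lie above 10 CPM per kb in all 4 libraries, and most genes show the genotypes close together.

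Of the type I cadherins, which form the adherens junctions of most solid tissues, Cdh15 (M-cadherin of skeletal muscle) carried the most mark. It had 15.1 and 15.2 CPM per kb in cKO libraries, against 15.2 and 11.2 in wild type, where a single library was low and the genotypes overlapped. The level lay above that of 99.0% of tested windows in cKO and 98.9% in wild type. Cdh4 (R-cadherin) stood at 1.52 ± 0.0350 CPM per kb in cKO and 1.41 ± 0.0856 in wild type, and Cdh2 (N-cadherin of neural and mesenchymal cells) at 0.867 ± 0.00105 and 0.815 ± 0.0738 (SD, n = 2 each). Neither was called, with log2 fold changes of 0.11 ± 0.08 and 0.09 ± 0.10 (SE, adjusted p = 0.531 and 0.733).

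The neighbouring Cdh3 (P-cadherin) and Cdh1 (E-cadherin, the main epithelial cadherin) on chromosome 8 differed strongly in level, although their annotated ends lie 46439 bp apart. Cdh3 had 2.55 and 2.57 CPM per kb in cKO libraries and 2.69 and 2.75 in wild type, whereas Cdh1 had 0.210 and 0.252 in cKO and 0.202 and 0.138 in wild type. The Cdh3 level was thus 12.1 and 10.2 times that of Cdh1 in the cKO libraries and 13.3 and 19.9 times in the wild-type libraries. The Cdh1 level lay above that of 27.7% of tested windows in cKO and 20.1% in wild type, and the Cdh3 level above that of 86.9% in wild type. Neither gene was called between genotypes (adjusted p = 0.466 for Cdh1 and 0.754 for Cdh3).

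The 13 type II cadherins, many of them expressed in subsets of neurons, were on the whole lower. Their median was 0.290 ± 0.0144 CPM per kb in cKO and 0.300 ± 0.00343 in wild type, against 1.52 ± 0.0350 and 1.41 ± 0.0856 for the 5 of type I. Each SD is that of a class median between the 2 libraries of a genotype, not between genes. Within type I the mean level of the genotypes ran from 0.201 (Cdh1) to 14.2 (Cdh15) CPM per kb. Type II windows were also longer, with a median of 158 kb against 72.9 kb, and longer windows had lower levels. Cdh22, of the brain, was the highest of type II, at 3.20 and 3.29 CPM per kb in cKO and 3.50 and 3.06 in wild type (log2 fold change −0.02 ± 0.09, adjusted p = 0.947). Cdh5 (VE-cadherin of endothelial junctions) followed, with 2.20 and 2.53 in cKO and 1.89 and 2.16 in wild type. The change at Cdh5 did not pass the test (log2 fold change 0.23 ± 0.12, adjusted p = 0.315). At the low end, Cdh19 had 0.140 and 0.136 CPM per kb in cKO and 0.0824 and 0.0827 in wild type, on 43 and 44 counts in cKO and 20 and 17 in wild type. The change at Cdh19 was not called (log2 fold change 0.74 ± 0.35, adjusted p = 0.226). Cdh24 held 10 and 2 counts in cKO and 12 and 10 in wild type (−1.34 ± 0.65, adjusted p = 0.242), with 60.8% of its window shared with other genes. Only the wild-type libraries carried Cdh24 past the count filter, so its entry to the test rested on the genotype where it was higher.

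The 5 remaining numbered cadherins were grouped apart from types I and II. Cdh23, which forms the tip link of inner ear hair cells together with Pcdh15, had near-equal values, at 1.85 CPM per kb in both cKO libraries and 1.86 and 1.88 in wild type (log2 fold change −0.01 ± 0.08, adjusted p = 0.956). Cdh16, of kidney tubules, stood at 2.56 and 1.90 CPM per kb in cKO and 1.89 and 1.58 in wild type, and Cdh17, of the intestine, at 1.00 and 1.18 in cKO and 1.13 and 0.989 in wild type. Cdh16 had a log2 fold change of 0.35 ± 0.16 (adjusted p = 0.186), with 8.17% of its window shared, and Cdh17 one of 0.04 ± 0.14 (adjusted p = 0.925). Cdh13 (T-cadherin, which is held to the membrane by a lipid anchor and binds adiponectin) had the most counts of any member, 2480 and 2910 in cKO and 2014 and 1729 in wild type. Spread over a window of 1046 kb, this was only 0.769 ± 0.0619 CPM per kb in cKO and 0.752 ± 0.00722 in wild type (adjusted p = 0.894).

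Among the single protocadherins, Pcdh8 (paraxial protocadherin of the early mesoderm) and Pcdh1 (of airway and other epithelia) were at the top. Pcdh8 had 13.8 and 12.5 CPM per kb in cKO and 17.6 and 13.2 in wild type, and Pcdh1 had 14.1 and 15.2 in cKO and 15.4 and 11.2 in wild type. The Pcdh1 level rests on the deposited window of 19.1 kb, and the reference window is 68.5% longer. In each gene the wild-type libraries differed more from each other than the genotype means did, and neither was called (log2 fold changes −0.23 ± 0.11 and 0.13 ± 0.10, adjusted p = 0.234 and 0.509). Pcdh12 (known as VE-cadherin-2, of endothelium) had 6.40 and 5.85 CPM per kb in cKO and 5.36 and 4.68 in wild type. The change at Pcdh12 missed the threshold (0.28 ± 0.12, adjusted p = 0.137). Other windows share 6.60% of its window, or 62.1% if windows that differ in length from the reference are kept. Pcdh17 and the X-linked Pcdh19, both of neurons, stood at 2.25 ± 0.0603 and 1.72 ± 0.148 CPM per kb in cKO and at 2.19 ± 0.0452 and 1.66 ± 0.213 in wild type (log2 fold changes 0.04 ± 0.10 and 0.05 ± 0.11, adjusted p = 0.883 and 0.854). Of the Pcdh17 window, 23.7% is shared. Pcdh10, of which other windows share 48.0%, was near the median of tested windows, at 0.736 ± 0.0511 in cKO and 0.674 ± 0.0261 in wild type (0.12 ± 0.17, adjusted p = 0.771). The very long Pcdh7, Pcdh15, Pcdh11x and Pcdh9 lay below that median, with means from 0.217 to 0.323 CPM per kb in cKO and from 0.154 to 0.330 in wild type. Pcdh7, of brain and heart, had 119 and 152 CPM in cKO and 133 and 145 CPM in wild type (−0.03 ± 0.11, adjusted p = 0.936).

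The number of CG pairs before the start of transcription showed little relation to the level. CG dinucleotides are the sites of DNA methylation, and stretches rich in unmethylated CG are a known setting for PRC2. For 22 of the 35 genes a promoter sequence was at hand from RefSeq (build GRCm38.p6), and CG pairs were counted in the 250 bases before the start, taking the start with the most where a gene had several. The count ran from 0 (Cdh26) to 30 (Cdh22) with a median of 9, against a median of 6 over 32851 promoters, of which 92.1% held at least 1; CG reads the same on both strands. The other 13 genes, among them the strongly marked Pcdh1 and Pcdh12 and the called Cdh11, do not enter these values. Over these 22 genes Spearman's rho between the CG count and the level was −0.03, and over 12259 tested genes it was −0.25. The following 6 stretches are shown because they hold few to many CG pairs (3 to 30), with CG in capitals and each read 5′ to 3′ towards the gene. Cdh15 and Pcdh8 had the highest levels, Cdh22 the most CG, Cdh8 a low level beside a CG-rich start, and Pcdh9 and Pcdh20 were called between genotypes, Pcdh20 on few counts.
Cdh15 upstream (chr8:122848124-122848373, plus strand): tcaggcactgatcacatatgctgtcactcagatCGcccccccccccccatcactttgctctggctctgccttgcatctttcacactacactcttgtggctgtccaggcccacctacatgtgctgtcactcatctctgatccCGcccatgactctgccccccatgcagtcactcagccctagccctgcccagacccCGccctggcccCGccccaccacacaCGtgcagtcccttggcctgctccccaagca
Pcdh8 upstream (chr14:79771313-79771562, minus strand): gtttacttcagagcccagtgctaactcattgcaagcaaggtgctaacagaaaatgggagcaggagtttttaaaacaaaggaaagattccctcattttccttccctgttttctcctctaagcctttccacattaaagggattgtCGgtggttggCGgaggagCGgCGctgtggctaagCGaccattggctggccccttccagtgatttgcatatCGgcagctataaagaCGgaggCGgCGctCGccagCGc
Cdh22 upstream (chr2:165234738-165234987, minus strand): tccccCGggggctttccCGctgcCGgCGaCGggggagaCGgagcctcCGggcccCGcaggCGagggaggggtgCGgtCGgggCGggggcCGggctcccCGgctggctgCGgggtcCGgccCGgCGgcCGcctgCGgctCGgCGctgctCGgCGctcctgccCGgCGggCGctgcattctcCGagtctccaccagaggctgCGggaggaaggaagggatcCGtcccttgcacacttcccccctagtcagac
Cdh8 upstream (chr8:99416472-99416721, minus strand): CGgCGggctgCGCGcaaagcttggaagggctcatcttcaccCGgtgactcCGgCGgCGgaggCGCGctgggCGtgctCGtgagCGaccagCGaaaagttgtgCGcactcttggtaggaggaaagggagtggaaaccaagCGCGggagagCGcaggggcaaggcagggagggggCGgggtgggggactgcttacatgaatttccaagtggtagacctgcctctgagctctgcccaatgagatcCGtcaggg
Pcdh9 upstream (chr14:93890680-93890929, minus strand): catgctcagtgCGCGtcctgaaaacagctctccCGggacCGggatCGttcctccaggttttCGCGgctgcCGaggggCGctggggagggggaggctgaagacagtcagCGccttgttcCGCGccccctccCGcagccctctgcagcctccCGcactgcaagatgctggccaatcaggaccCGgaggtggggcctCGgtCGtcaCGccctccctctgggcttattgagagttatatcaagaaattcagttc
Pcdh20 upstream (chr14:88471397-88471646, minus strand): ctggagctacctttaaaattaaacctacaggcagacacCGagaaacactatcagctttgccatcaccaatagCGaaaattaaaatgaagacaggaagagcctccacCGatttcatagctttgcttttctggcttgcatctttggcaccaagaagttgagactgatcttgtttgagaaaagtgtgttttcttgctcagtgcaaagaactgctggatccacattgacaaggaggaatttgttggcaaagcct
Cdh15 held 5 CG pairs and Cdh8 20, while their levels were 15.2 ± 0.0987 and 0.142 ± 0.00935 CPM per kb in cKO and 13.2 ± 2.80 and 0.110 ± 0.0242 in wild type. At least as many CG pairs as in Cdh15 were found in 55.6% of all promoters, and at least as many as in Cdh8 in 17.9%. Pcdh8 held 11 pairs, Pcdh9 18 and Pcdh20 3. The windows also cover the gene bodies, so these counts do not say where in a window the mark lay.

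**Figure D2:**
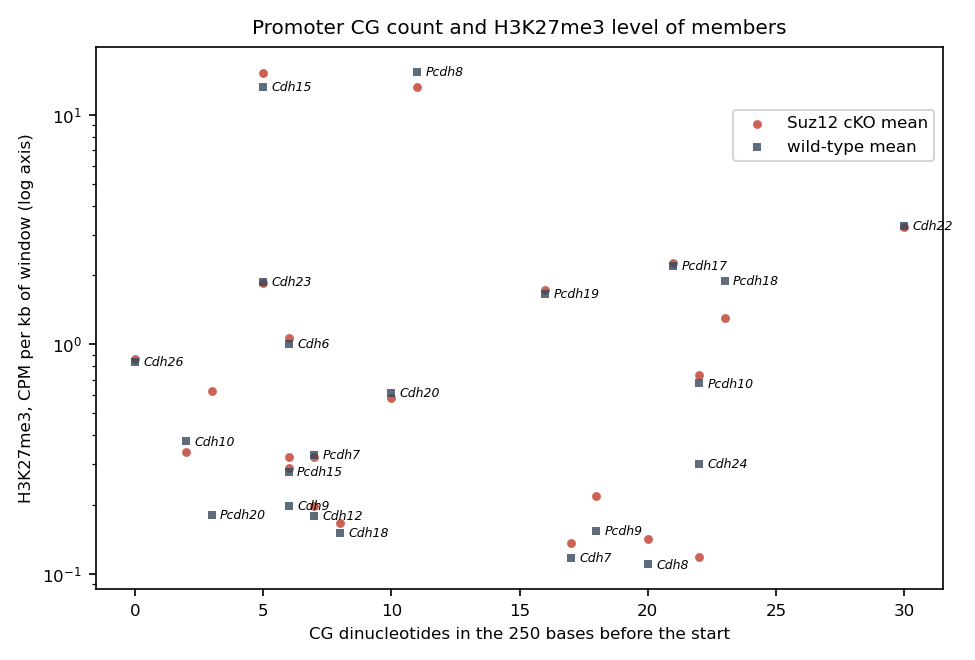
CG dinucleotides in the 250 bases before the start (horizontal axis) and H3K27me3 in CPM per kb of window (log axis) for 22 members, with the Suz12 cKO mean as a circle and the wild-type mean as a square. High levels occur at 5, 11 and 30 pairs (Cdh15, Pcdh8, Cdh22), and low ones at 2 and 8 (Cdh10, Cdh18) as well as at 18 and 20 (Pcdh9, Cdh8).

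Loss of Suz12 was accompanied by a called change at few of these genes. Of the 93 members, 54 passed the count filter and were tested, and 3 of them, Pcdh9, Pcdh20 and Cdh11, were higher in cKO, while 0 were lower (edgeR quasi-likelihood test, adjusted p below 0.05). Over all 16752 tested genes 6.42% were called, 4.46% as higher and 1.96% as lower, so that the 5.56% of members called is near the background. At an unadjusted p below 0.05 there were 10 members higher and 4 lower, against 1722 higher and 1383 lower of all 16752 tested genes. DESeq2 called 1 member, Pcdh9, of 33 with an adjusted p, against 3.76% of all genes with one. Of the 35 genes outside the clusters, 26 had a positive log2 fold change, with a median of 0.12, against 8097 of 16752 genes and a median of −0.01 over all tested genes. With upper-quartile factors 20 of the 35 were positive and the median was 0.04, against −0.10 over all genes, and with factors from broadly expressed genes 30 were positive and the median was 0.19, against 0.06. The 3 called genes all stood below the median level of tested windows, and 0 of the 19 members outside the clusters that stood above it were called. Over all tested windows 7.53% of those above the median and 5.31% of the rest were called.

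Pcdh9 (Entrez 211712, chromosome 14, 93013700 to 93892834 in GRCm38.p6), which is mainly known from brain, had the lowest p of all members. It had 186 and 196 CPM in cKO libraries, against 125 and 147 CPM in wild type, so that the cKO values were above both wild-type values. The log2 fold change was 0.50 ± 0.11 (SE, adjusted p = 0.000438). It was called in 11 of 12 alternatives, the exception being the fit without cKO library 2 (0.46, adjusted p = 0.103). The window of 881 kb holds no window of another gene, and its level per kb was low in both genotypes, at 0.217 ± 0.00806 in cKO and 0.154 ± 0.0174 in wild type. Calls were more common among long windows. Of the 949 tested windows above 200 kb, a limit chosen after the values were seen, 16.2% were called, against 6.42% of all tested genes.

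Cdh11 (Entrez 12552, chromosome 8, 102632095 to 102785493), the cadherin of mesenchymal cells and osteoblasts, had 101 and 108 CPM in cKO and 80.3 and 73.3 CPM in wild type. The groups did not overlap, and the log2 fold change was 0.44 ± 0.13 (adjusted p = 0.0176). The call was lost without cKO library 1 (adjusted p = 0.104), cKO library 2 (0.354) or wild-type library 2 (0.130), with upper-quartile factors (0.0824) and by DESeq2 (0.190). Across these 5 the log2 fold change stayed between 0.36 and 0.50.

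Pcdh20 (Entrez 219257, chromosome 14, 88464743 to 88471396), a gene of the nervous system, had the largest fold change of the members tested, on few counts. It held 20 and 33 counts in cKO and 7 and 4 in wild type, or 6.12 and 9.64 CPM in cKO and 2.71 and 1.83 CPM in wild type. The log2 fold change was 1.76 ± 0.54 (adjusted p = 0.0248). Only the cKO libraries carried Pcdh20 past the count filter, so its entry to the test rested on the genotype where it was higher. Without a count filter the adjusted p of the edgeR test was 0.0229. The call was lost without cKO library 2 (1.40, adjusted p = 0.565), wild-type library 1 (2.09, adjusted p = 0.0689) or wild-type library 2 (1.54, adjusted p = 0.181). DESeq2 gave no adjusted p, and a filter at a mean of 50 counts removed the gene.

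Pcdh18, a protocadherin of developing tissues, was the nearest to a loss. It had 20.5 and 31.5 CPM in cKO and 39.6 and 35.7 CPM in wild type, with a wide spread between the cKO libraries (log2 fold change −0.53 ± 0.20, adjusted p = 0.10). It was called as lower without cKO library 2 (−0.88, adjusted p = 0.0443) and among genes with a mean of at least 50 counts (−0.59, adjusted p = 0.0362). Leaving out wild-type library 1 gave calls for Cdh15 (0.44, adjusted p = 0.000931) and Pcdh1 (0.40, adjusted p = 0.0109), and leaving out wild-type library 2 gave calls for Pcdh8 (−0.41, adjusted p = 0.0181), Pcdh15 (0.35, adjusted p = 0.0320) and Cdh9 (1.04, adjusted p = 0.0409). With all 4 libraries none of these 5 was called (adjusted p from 0.181 to 0.509).

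**Figure D3:**
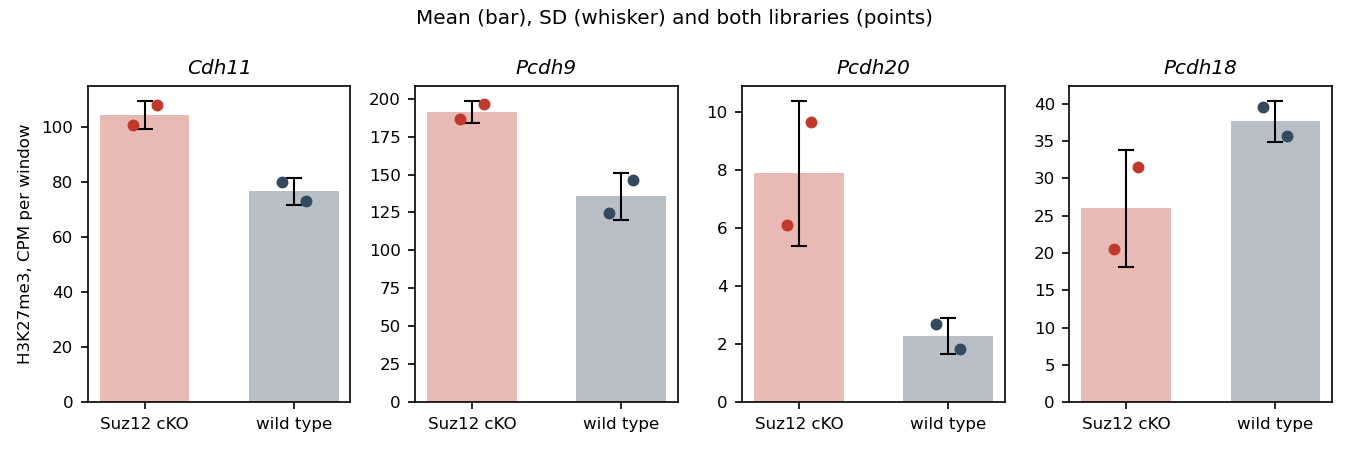
H3K27me3 in CPM per window for Cdh11, Pcdh9, Pcdh20 and Pcdh18, with bars for the mean, whiskers for the SD (n = 2) and points for the libraries, Suz12 cKO left of wild type, and a separate vertical axis from 0 for each gene. In Cdh11, Pcdh9 and Pcdh20 both cKO points lie above both wild-type points, and in Pcdh18 both lie below. The tests used the same libraries, so the separation is no further evidence.

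**Figure D4:**
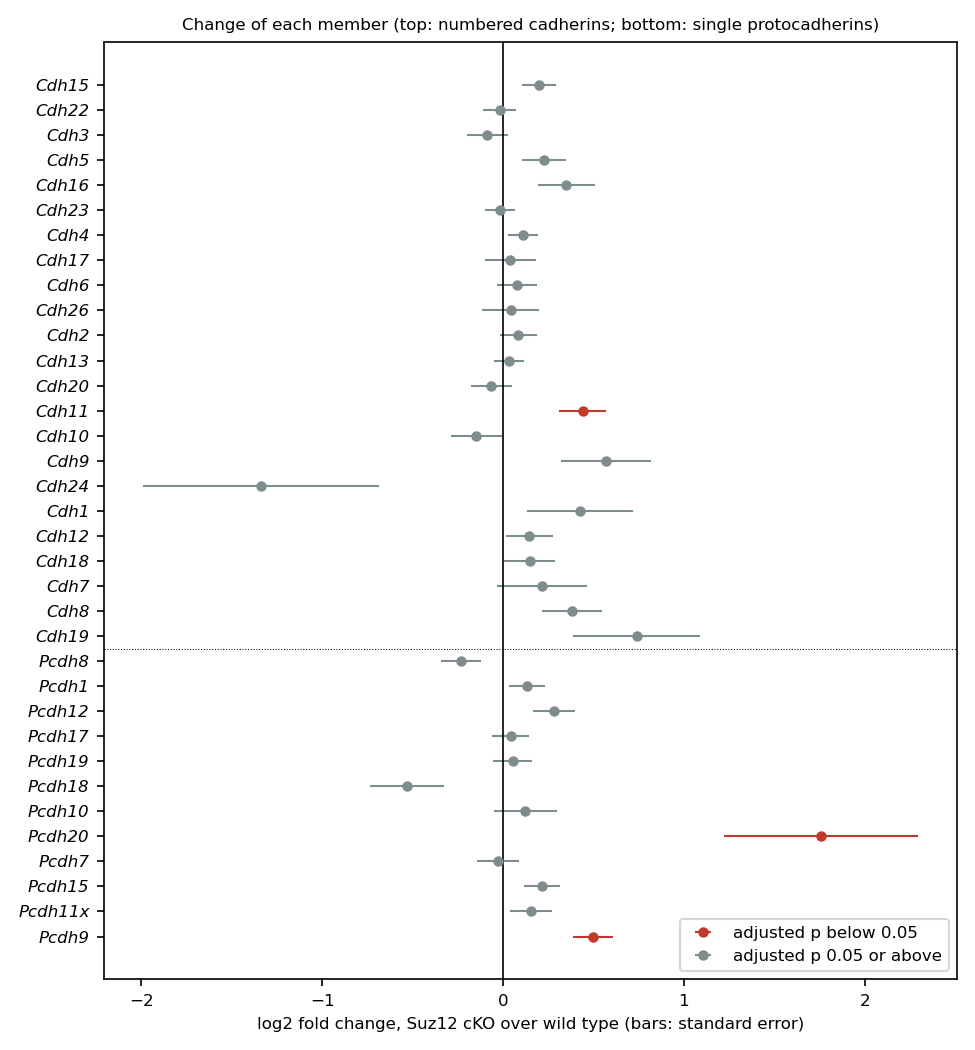
Log2 fold change of Suz12 cKO over wild type with its standard error for the 35 genes outside the clusters, in order of level within numbered cadherins (top) and single protocadherins (bottom). The 3 called genes are red, and the widest bars belong to Cdh24 and Pcdh20, which have few counts.

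The type II cadherins Cdh6, Cdh9, Cdh10, Cdh12 and Cdh18 lie on chromosome 15 and had fold changes of both signs. Cdh9 had 25.4 and 23.7 CPM in cKO and 12.02 and 21.5 CPM in wild type (0.57 ± 0.25, adjusted p = 0.181), where wild-type library 1 was the low one. Cdh10 stood at 67.0 and 68.3 CPM in cKO and 68.6 and 82.0 CPM in wild type (−0.15 ± 0.14, adjusted p = 0.636). Cdh6, Cdh12 and Cdh18 had log2 fold changes from 0.08 to 0.15. On chromosome 8, Cdh8 had 53.2 and 58.4 CPM in cKO and 36.5 and 49.9 CPM in wild type (0.38 ± 0.16, adjusted p = 0.166). Of the 12 members outside the clusters with a window above 200 kb, a limit chosen after the values were seen, 9 had a positive log2 fold change and the median was 0.13. The 23 members outside the clusters with shorter windows were alike, with 17 positive and a median of 0.12. Of the 949 tested windows above 200 kb in the whole table, 419 were positive and the median was −0.03.

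Most windows of the clustered protocadherins could not be read singly. The counts look as if reads in stretches shared by windows were mostly left uncounted, which is an inference from the values, since no source gives the counting options. In all, 33 of the 58 clustered genes had no counts in any library. In Pcdha, 12 of 14 had none, Pcdha1 held nearly all counts of the cluster (44 and 34 in cKO, 19 and 28 in wild type), and Pcdha2 had 1 count in cKO library 2. The Pcdha1 window has 8.92 kb that no other window shares. In Pcdhg, 21 of 22 had none, and Pcdhga1 alone held 46 and 45 counts in cKO and 41 and 36 in wild type, over 7.15 kb of unshared window. A count of 0 in these nested windows therefore says nothing of the level, whereas in an open window it would allow up to 3 counts, or 0.876 to 1.37 CPM.

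The 22 Pcdhb genes, each a single exon, all had counts, in windows that share up to 95.4% with their neighbours, with windows of differing length left out as before. A window held from 5 to 34 counts (median 16) in cKO library 1, from 4 to 29 (median 17.5) in cKO library 2, from 4 to 22 (median 14.5) in wild-type library 1 and from 4 to 24 (median 10.5) in wild-type library 2. They are close copies of one another, so the assignment of short reads among them is uncertain. Pcdhb20 had the highest mean level per kb of them, with 10.4 and 8.47 CPM in cKO and 8.14 and 9.16 CPM in wild type, with overlapping genotypes (log2 fold change 0.13 ± 0.37, adjusted p = 0.911). Pcdhb19 had the lowest p, with 20 and 8 counts in cKO and 18 and 20 in wild type (−0.93 ± 0.47, adjusted p = 0.267). Pcdhb2 was furthest in the other direction, with 24 and 17 counts in cKO and 11 and 4 in wild type (0.96 ± 0.54, adjusted p = 0.331). Pcdhb16 had a log2 fold change of −0.94 ± 0.54 (adjusted p = 0.347), and Pcdhb1 and Pcdhb21, next to Pcdhb20 in level, had −0.40 ± 0.41 and −0.23 ± 0.43 (adjusted p = 0.668 and 0.838). Pcdhb16 passed the count filter on its wild-type libraries alone, the genotype where it was higher.

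Of the 19 clustered genes that were tested (17 Pcdhb, Pcdha1 and Pcdhga1), 0 were called, 8 had a positive log2 fold change and 11 a negative one. By edgeR 1 of them had an unadjusted p below 0.05, and by DESeq2, which gave an adjusted p for 1, 0 were called. Summed over the cluster, Pcdhb had 107 and 112 CPM in cKO and 119.8 and 114 CPM in wild type, a ratio of 0.938, and the genotypes did not overlap. Pcdhg had 14.1 and 13.1 CPM in cKO and 15.9 and 16.5 CPM in wild type (ratio 0.840), and Pcdha 13.5 and 10.2 CPM in cKO and 7.37 and 12.8 CPM in wild type (ratio 1.17). The exact two-sided permutation p was 0.333 for Pcdhb and Pcdhg, the smallest that 2 libraries against 2 allow, and 0.667 for Pcdha. As 1 row each of the edgeR fit, a choice made after seeing the data, the sums had log2 fold changes of 0.25 ± 0.34 (Pcdha), −0.09 ± 0.12 (Pcdhb) and −0.25 ± 0.29 (Pcdhg), with adjusted p-values of 0.769, 0.747 and 0.712.

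Per kb of unshared window the clusters stood at moderate levels. Pcdhg had 1.90 ± 0.0912 CPM per kb in cKO and 2.26 ± 0.0578 in wild type, Pcdha 1.17 ± 0.225 and 0.994 ± 0.380, and Pcdhb 0.833 ± 0.0274 and 0.889 ± 0.0287 (SD, n = 2 each). These divide all counts by the unshared length alone, and a window with little of it, such as that of Pcdhb17 with 0.426 kb, still held 8 and 5 counts in cKO and 10 and 6 in wild type. The values may therefore be too high. Those of Pcdhg and Pcdhb also rest on leaving out windows whose length differs from the reference. With such windows kept, the Pcdhga1 window and every Pcdhb window are wholly shared.

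**Figure D5:**
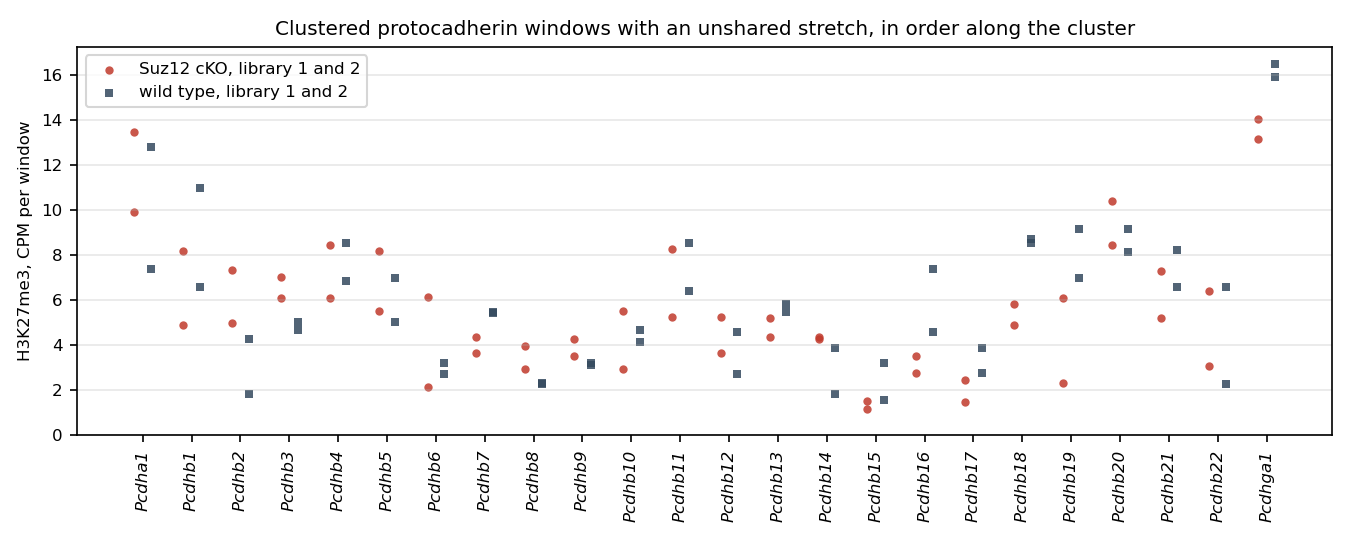
H3K27me3 in CPM per window for the 24 clustered protocadherin windows that have an unshared stretch and counts, in their order along the cluster, with Suz12 cKO left of wild type and 1 point per library. Along Pcdhb the direction is mixed, with the cKO points above the wild-type points at some windows, below at others and overlapping at the rest. The 2 wild-type points of Pcdhga1 lie above its cKO points.

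Of 23 tested partners at the junction (catenins, plakophilins, nectins and actin linkers), 1 was higher and 2 were lower in cKO by edgeR, against 4.46% higher and 1.96% lower over all tested genes. DESeq2 called 1 higher and 0 lower, with adjusted p = 0.143 for Afdn and 0.331 for Ctnna1. Nectin1, an adhesion molecule recruited to the same junctions, had 209 and 217 CPM in cKO and 167 and 154 CPM in wild type (log2 fold change 0.40 ± 0.11, adjusted p = 0.00539). Afdn, which links nectins to actin, had 104.6 and 82.4 CPM in cKO and 126 and 135 CPM in wild type (−0.48 ± 0.12, adjusted p = 0.00325). Ctnna1 (α-catenin, the actin link of classical cadherins) had 27 and 40 counts in cKO and 45 and 48 in wild type (−0.97 ± 0.30, adjusted p = 0.0253), with 8.47% of its window shared. The median log2 fold change of the partners was 0.01. Leaving out cKO library 2 ended the calls of Nectin1 (adjusted p = 0.223) and Afdn (0.498), leaving out cKO library 1 those of Nectin1 (0.0856) and Ctnna1 (0.260), and leaving out wild-type library 2 that of Ctnna1 (0.274).

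Of 26 other members of the cadherin superfamily, 3 were higher and 0 lower, with 3 higher and 0 lower at an unadjusted p below 0.05 and 2 called by DESeq2, both higher. Over all tested genes 4.46% were called higher by edgeR. The median log2 fold change was 0.10. Fat2, a giant cadherin of the skin and cerebellum, had 256 and 270.4 CPM in cKO and 185 and 174 CPM in wild type (0.55 ± 0.10, adjusted p = 1.25e-05). Celsr1, of planar cell polarity, had 363 and 349.9 CPM in cKO and 274 and 288 CPM in wild type (0.34 ± 0.09, adjusted p = 0.00988), and Dchs1, a partner of the Fat cadherins, 114 and 108 CPM in cKO and 81.8 and 86.1 CPM in wild type (0.41 ± 0.13, adjusted p = 0.0287). In all 3 both cKO values were above both wild-type values, but the test used the same libraries, so this is no further evidence. The call of Fat2 held in all 12 alternatives. That of Celsr1 ended on leaving out either cKO library (adjusted p = 0.214 and 0.151) and with upper-quartile factors (0.0642). That of Dchs1 ended without cKO library 1 (0.290), cKO library 2 (0.210) or wild-type library 1 (0.142), with library totals (0.0692), with upper-quartile factors (0.114) and by DESeq2 (0.225).

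Genes known to act on the clustered protocadherins include the chromatin loop factors that choose their promoters. Over the 15 listed the median was 0.0908 ± 0.00134 CPM per kb in cKO and 0.105 ± 0.00119 CPM per kb in wild type, and 2 of them, the X-linked cohesin genes Stag2 and Smc1a, stood above the median of tested windows, at 1.20 and 1.02 CPM per kb in cKO and 1.01 and 1.25 in wild type. Both were named after their values were seen. Of these genes 12 were tested, of which 0 were higher and 2 lower, against 1.96% lower over all tested genes. By DESeq2 0 were called, and 1 was higher at an unadjusted p below 0.05 by edgeR. Wiz, a zinc finger protein, held 25 and 13 counts in cKO and 28 and 35 in wild type (−1.22 ± 0.38, adjusted p = 0.0281), with 17.9% of its window shared. Stag1, a cohesin subunit, held 70 and 42 counts in cKO and 76 and 57 in wild type (−0.73 ± 0.24, adjusted p = 0.0450). Neither call held without cKO library 2 (adjusted p = 0.471 for Wiz and 0.696 for Stag1) or wild-type library 2 (0.370 and 0.0910), and Stag1 also lost it without wild-type library 1 (0.267).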

How the data were processed

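The authors deposited a single table of whole-number read counts per gene window, with a column for each of 4 libraries and a length in bp. Per the submitters' processing notes the counter was featureCounts and the build mm10; no source used here names the aligner, the handling of duplicates or the counting options. Per the labels, reads were paired and 36 bp long, and 0.5 µg of antibody was used. The lengths of 11524 windows equal the gene span of the GRCm38.p6 table plus 3 kb on each side. For overlaps, windows whose deposited length differed from the reference by over 10% were left out as partners. Of the 35 members outside the clusters 6 differed so: Cdh9, Cdh12, Cdh13, Cdh18, Pcdh1 and Pcdh15. Where their counted stretches lie is uncertain. Symbols were found for 25204 IDs (93.0%).

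Counts were filtered (filterByExpr, 16752 genes), scaled by TMM factors and tested with edgeR 4.0.16 under R 4.3.3 (glmQLFit, glmQLFTest, genotype as the only term), with Benjamini-Hochberg adjustment over all tested genes and calls below 0.05. Standard errors are the size of the log2 fold change divided by the square root of F. Levels are TMM-scaled CPM divided by the deposited window length in kb. Alternatives were 4 other scalings, 2 other filters, DESeq2 1.42.0, a replicate block and each library left out; with 1 library left in a genotype, it is assumed to vary like the other genotype. Members, gene lists and the promoter stretches were chosen with earlier results of these data known. Genes named with full values are the called members, the 3 highest and the 3 of lowest p in each class, a set of well-known members and the called genes of the 3 lists; other members given with a test were chosen after their values were seen. Floors cover counting error only, and with 2 libraries per genotype the p-values measure only the spread between these samples.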

Additional observations from a re-analysis of the deposited data

How the results depend on the processing

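DESeq2 called 367 genes in all, against 1076 by edgeR, and called 1 member higher, with 0 numbered cadherins and 1 single protocadherin. A minimum mean of 50 counts left 1 single protocadherin called higher (Pcdh9) and 1 member, itself a single protocadherin, called lower (Pcdh18). Upper-quartile factors left 0 numbered cadherins called higher. Leaving out each library in turn gave 426 to 945 calls over all genes, 0 to 4 members higher and 0 to 1 lower, 0 to 2 numbered cadherins higher, and 0 to 2 single protocadherins higher and 0 to 1 lower. The lowest counts over all genes and of members higher came without cKO library 2 and the highest without wild-type library 1. The summed Pcdha ratio ran from 0.927 (without wild-type library 1) to 1.62 (without wild-type library 2).

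Log2 fold changes of some members turned round. Library totals gave −0.024 for Cdh13, −0.014 for Cdh17, −0.012 for Pcdh17 and −0.0023 for Pcdh19. Upper-quartile factors gave −0.053, −0.044, −0.041 and −0.032 for the same genes, and a minimum mean of 50 counts gave −0.021, −0.012, −0.0097 and −0.00020. Factors from broadly expressed genes gave 0.052 for Cdh22, 0.057 for Cdh23 and 0.044 for Pcdh7. Without a count filter Cdh22 and Cdh23 were at 0.00028 and 0.0045, and by DESeq2 at 0.00035 and 0.0046. With a library left out, Cdh13 ran from −0.049 to 0.12, Cdh17 from −0.075 to 0.16, Cdh22 from −0.10 to 0.091, Cdh23 from −0.014 to 0.0021, Pcdh1 from −0.062 to 0.40, Pcdh19 from −0.058 to 0.20, Pcdh7 from −0.22 to 0.14, Pcdh8 from −0.41 to 0.0060, Pcdhb1 from −0.82 to 0.0023 and Pcdhb20 from −0.020 to 0.27. The causes were not tested.

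Upper-quartile factors gave 494 genes higher and 519 lower, and library totals 597 and 475. Factors from broadly expressed genes gave 917 and 212, and the main TMM factors 747 and 329. Under these scalings Dchs1 lost its call with library totals (adjusted p = 0.0692) and upper-quartile factors (0.114), Celsr1 with upper-quartile factors (0.0642), and Stag1 with broadly expressed genes (0.0749). Stag1 also lost it without a count filter (0.0731). DESeq2 gave adjusted p = 0.143 for Afdn, 0.331 for Ctnna1, 0.225 for Dchs1 and 0.465 for Stag1, and none for Wiz. Deviations of libraries with the same replicate number were hardly correlated (0.00844). Counting noise in windows with few counts can hold this value low, so it cannot show whether the samples were paired. A fit with the replicate block gave 1039 calls over all genes, 1030 of them shared with the fit without it, and 3 members higher, 1 numbered cadherin and 2 single protocadherins. Windows with few counts had wide errors, with a standard error of 0.54 for Pcdh20, 0.65 for Cdh24 and 0.35 for Cdh19.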
